A study of Mus musculus with 10 samples.

Results

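Enzymes that remove peroxides and superoxide, or that make, recycle and use glutathione, were examined in cells sorted from mouse melanoma tumours. Members were taken by gene name, under a rule that uses no measured value but was written with earlier results of these data known: peroxiredoxins, glutathione peroxidases, superoxide dismutases, glutathione transferases, glutaredoxins and thioredoxins by their symbols, plus Cat, Gsr, Gss, Txnrd2 and Txnip. The name rule found 52 genes among 34162, and 46 of the 52 passed the filter on low counts and were tested.

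RNA sequencing covered 10 libraries of cells with the mixed C57BL/6:SV129 background, sorted by flow cytometry from fresh tumours. Primary cells came from skin tumours and metastatic cells from lymph nodes, and GFP-positive cells are named c-Myc-high and GFP-negative cells c-Myc-low in the labels. Skin tumours gave 2 libraries of each c-Myc class, and lymph nodes 3 of each. The labels give no sex, age, treatment, tumour-driving allele or GFP transgene, and do not say whether libraries came from separate mice, so the p-values describe the spread among these libraries alone, which may be technical. The study's title concerns AMPK, c-Myc and oxidative stress in melanoma, and its design text names primary against metastatic c-Myc-high cells as the comparison.

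Superoxide dismutases turn superoxide into hydrogen peroxide, which catalase, the peroxiredoxins and the glutathione peroxidases then reduce. Most peroxiredoxins draw their electrons from thioredoxin, and most glutathione peroxidases and glutaredoxins draw theirs from glutathione. Glutathione synthetase (Gss) makes glutathione, and glutathione reductase (Gsr) returns it to its reduced form. Glutathione transferases attach glutathione to reactive compounds, and many antioxidant genes are known targets of Nrf2, which binds antioxidant response elements in promoters.

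Short promoter stretches are shown for some of the members whose promoters hold a match to a known element, with the matched letters in capitals. The RNA levels measured here do not test these elements. The windows, from RefSeq with the build GRCm38.p6, run from 250 bases before to 50 bases after a transcript start, and 47 of the 52 members matched 63 of them. The antioxidant response element core TGACNNNGC, searched on both strands, was present in 6 member windows (9.52%) against 12.4% of all 32851 windows. The Txnip promoter is shown for a pair of CACGAG matches, a box of the carbohydrate response element through which glucose-sensing factors are known to act on this gene. That hexamer, searched on both strands, was present in 6.35% of member windows and 6.47% of all windows. A match is a run of letters, not a measured binding site. Distances are to the RefSeq transcript start of the window, which for Mgst1 lies inside the gene as GENCODE vM21 places it, so that this match is within the GENCODE gene.
Mgst1 (chr6:138140446-138140504, plus strand, match 56 bases before the RefSeq start, on the reverse strand): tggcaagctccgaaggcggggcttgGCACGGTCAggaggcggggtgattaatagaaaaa
Prdx1 (chr4:116685441-116685499, plus strand, match 133 bases before the start, on the reverse strand): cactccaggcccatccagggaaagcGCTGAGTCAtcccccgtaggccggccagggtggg
Sod1 (chr16:90220681-90220739, plus strand, match 56 bases before the start, on the reverse strand): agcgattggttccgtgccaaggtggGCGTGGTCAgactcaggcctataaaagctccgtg
Gstm5 (chr3:107895787-107895845, plus strand, match 42 bases before the start): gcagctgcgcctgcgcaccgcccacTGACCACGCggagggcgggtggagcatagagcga
Txnip (chr3:96557847-96557913, plus strand, first match 85 bases before the start): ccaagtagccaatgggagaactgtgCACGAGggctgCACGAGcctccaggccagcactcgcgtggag

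The other core matches lay in Gsta3 and Gstm7. The E-box CACGTG, the element c-Myc is known to bind, was found in 4.76% of member windows (Glrx2, Gpx6 and Prdx4) and 7.15% of all windows. No window of Gstt2, the member with the lowest p between sites in the average of classes, held any of these 3 letter strings, and nothing follows from that about the factors.

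Total estimated counts ran from 1603012 to 6844328 per library, so that 3 counts correspond to between 0.362 and 2.80 CPM after TMM scaling (CPM, the count scaled to library size). Correlation of log CPM between replicates was 0.587 to 0.674 for pairs of c-Myc-high libraries and 0.806 to 0.914 for pairs of c-Myc-low libraries of 1 group. Replicate pairs differed by more than counting error alone (chi-square per degree of freedom 34.7 to 162). All 12 melanocyte markers (such as Dct, Tyr and Pmel) had counts in every group, with a summed level of 601 to 2779 CPM in the primary and 2872 to 20625 CPM in the metastatic libraries. The 16 keratinocyte markers summed to 24790 to 93936 CPM in the primary and 28.1 to 356 CPM in the metastatic libraries, where Dsc1 was at 0 in the c-Myc-high and Flg in the c-Myc-low group. For the 10 pan-leukocyte markers the sums were 35.0 to 150 CPM in primary and 386 to 4867 CPM in metastatic libraries, with Was at 0 in both primary groups and Cd53 at 0 in the primary c-Myc-high group. Salivary gland transcripts summed to 216536 and 66176 CPM in replicates 1 and 3 of the metastatic c-Myc-high group and to at most 821 CPM elsewhere. The endothelial list summed to 4.08 to 27.0 CPM in primary and 84.2 to 510 CPM in metastatic libraries. Fibroblast markers summed to 5229 CPM in primary c-Myc-high replicate 2, the library with the fewest counts, and to at most 674 CPM elsewhere. That library also had the highest Glrx2 (154 CPM) and Glrx5 (259 CPM) of all libraries. Melanocyte, keratinocyte, leukocyte and endothelial lists thus moved with every comparison between sites below. The part of these lists and of fibroblasts in the results was not tested. In such bulk samples, fewer cells of a type and less RNA per cell cannot be told apart.

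**Figure D1:**
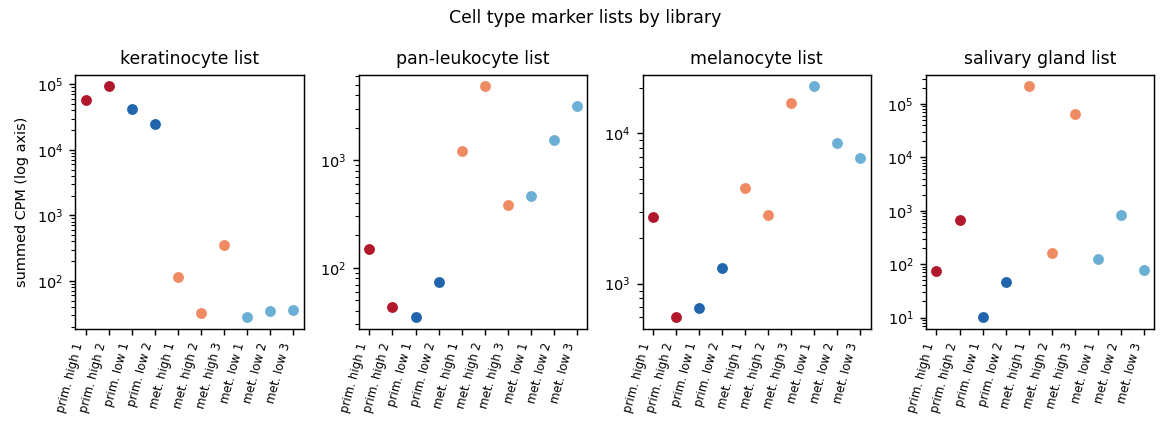
Summed CPM (log axis) of 4 marker lists, 1 point per library, coloured by group (red shades c-Myc-high, blue shades c-Myc-low). Keratinocyte sums are above 24790 in each primary library and at most 356 in each metastatic one, and only replicates 1 and 3 of the metastatic c-Myc-high group are above 821 CPM for the salivary list.

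Between 38 and 50 members had at least 1 count in a library. At an equal depth of 1600000 counts, 35.7 and 41.0 members would be seen in the primary c-Myc-high libraries, 46.2 and 46.4 in the primary c-Myc-low, 42.7 to 45.4 in the metastatic c-Myc-high and 47.1 to 47.8 in the metastatic c-Myc-low libraries. Members took 0.131% to 0.370% of all counts. Gpx5, Gpx6 and Gstt4 had almost no counts anywhere, and with Gpx2, Gsta3 and Gsto2 they made up the 6 members that failed the filter.

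Compared per length, by RPKM summed over a gene's transcripts, the glutathione peroxidase Gpx1 had the highest mean level of the members (39.5 RPKM over the 10 libraries). It was followed by Txnip at 35.0, the alpha-class transferase Gsta4 at 31.4, Gstp1 at 26.7, Gstp2 at 26.1, Prdx1 at 24.9, Prdx5 at 17.1 and Cat at 17.1 RPKM. These orders rest on wide ranges: Gpx1 ran from 2.33 to 95.9 RPKM and Gsta4 from 0.799 to 179 RPKM. The ranges of neighbours in the order thus overlap. The lowest and highest Gpx1 RPKM were in the libraries with the fewest and the most counts. In TMM-scaled CPM, Gpx1 ran from 44.8 to 424 and Gsta4 from 4.05 to 668. The part of library depth in the RPKM ranges and mean ranks was not tested. Gstt2, at 1.19 RPKM, had rank 37 of 52. Gstp1 and Gstp2 share over 62% of their 50-base stretches, so their separate levels are uncertain.

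**Figure D2:**
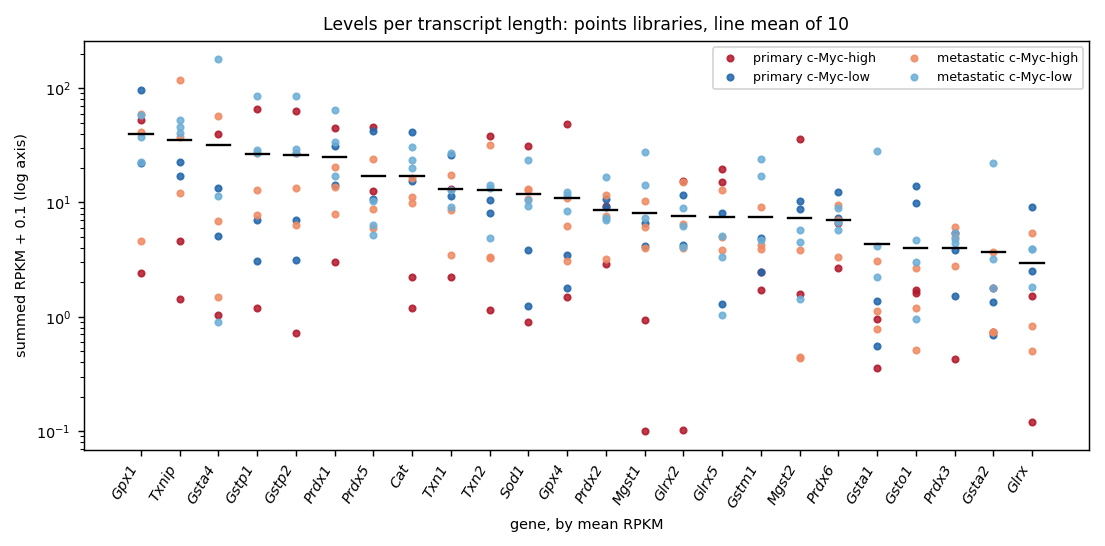
Summed RPKM + 0.1 on a log axis for the 24 members with the highest mean, ordered by mean RPKM; points are the 10 libraries coloured by group and lines the mean. Points of 1 group can lie far apart, as for Gsta4 with 0.799 to 179 RPKM in metastatic c-Myc-low cells.

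Across the whole list, few of these genes passed edgeR's test between metastatic and primary cells. Averaged over both c-Myc classes, the theta-class transferase Gstt2, the microsomal transferase Mgst1 and the thioredoxin inhibitor Txnip were higher in metastases, and the peroxiredoxin Prdx5 was lower. These 4 of 46 tested members passed edgeR's quasi-likelihood test at a Benjamini-Hochberg adjusted p under 0.05, against 13.8% of all 16805 genes tested (8.13% higher and 5.65% lower). The members' median log2 fold change was 0.40, beside 0.28 for all genes. Within c-Myc-high cells alone 1 member passed (Gstt2, higher), against 3.97% of all genes (1.65% higher), and within c-Myc-low cells none did, against 2.11%. In c-Myc-low cells DESeq2 called 4 members and limma-voom 15, where they called 1687 and 3944 of all 16805 genes. At an unadjusted p under 0.05 there were 13, 5 and 9 members in these comparisons, or 28.3%, 10.9% and 19.6%, beside 30.4%, 26.3% and 15.1% of all genes. The averaged comparison uses the same libraries as the other 2 and is not independent of them.

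**Figure D3:**
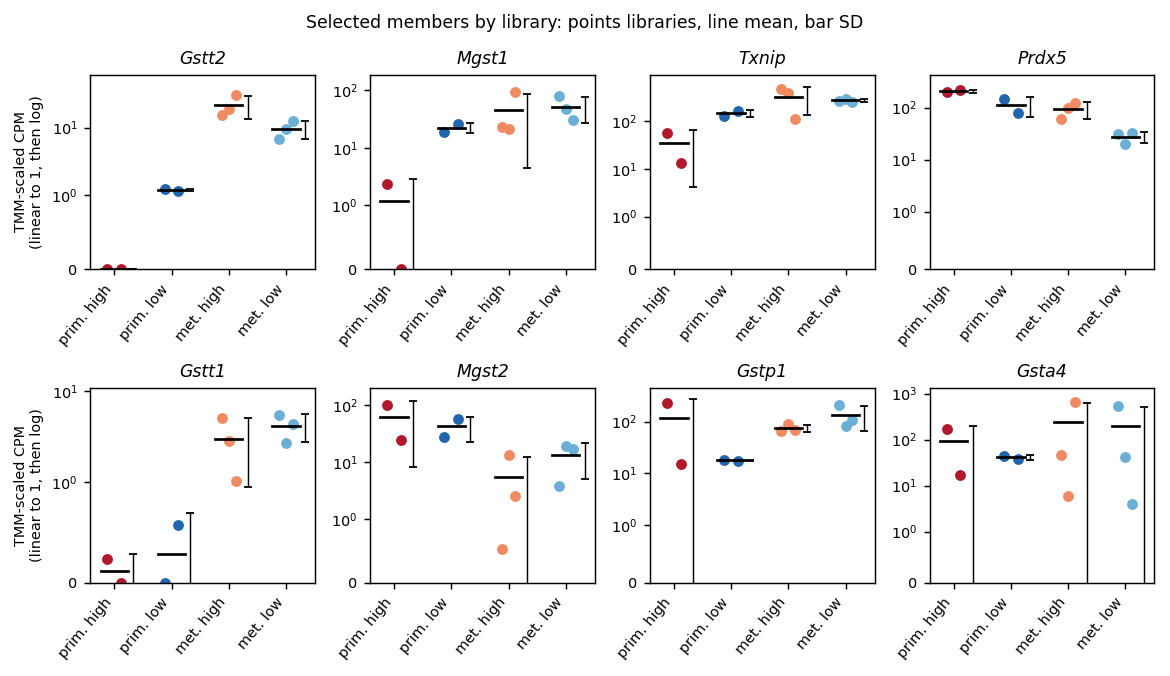
TMM-scaled CPM of 8 members by library (axis linear up to 1, then logarithmic); points are libraries, horizontal lines group means and bars SD, with 2 primary and 3 metastatic libraries per class. Gstt2 is at 0 in both primary c-Myc-high libraries and at 15.3 to 30.7 CPM in the metastatic ones; Gsta4 spreads over its range within groups.

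Gstt2 (chr10:75831114-75837424, minus strand, protein coding, GENCODE vM21 on GRCm38) had 0 counts in both primary c-Myc-high libraries and 1.21 and 1.16 CPM in the primary c-Myc-low ones. In metastases it reached 15.3, 18.5 and 30.7 CPM in c-Myc-high and 6.76, 9.52 and 12.5 CPM in c-Myc-low cells. Every metastatic library lay above every primary one in both classes. With 208 counts against 0 in c-Myc-high cells, Gstt2 was at least 37.6-fold higher in metastases, taking 3 counts over the primary group as the floor. The adjusted p was 0.0231 there, 0.231 in c-Myc-low cells (log2 fold change 2.99, SE 1.14) and 0.00511 averaged over classes (edgeR). The averaged log2 fold change of 6.35 (SE 1.13) depends on the prior count, because 1 group is at 0. None of its 50-base stretches occurs in another annotated gene and no other gene overlaps its exons.

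Averaged over classes, Gstt2 passed in 20 of 20 alternative analyses, with an adjusted p of at most 0.0475. The call within c-Myc-high cells held in 12 of 21, and was lost without any 1 of the following: replicate 1 of the primary c-Myc-high group, either primary c-Myc-low library, and replicate 2 of the metastatic c-Myc-low group (adjusted p 0.0528 to 0.0787). Leaving out both libraries rich in salivary transcripts left 1 library in the metastatic c-Myc-high group. The log2 fold change was then 9.59 in c-Myc-high cells and 6.26 averaged over classes (edgeR). The call in c-Myc-high cells was lost there, which cannot be told apart from the loss of libraries.

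Gstt1, a theta-class neighbour of Gstt2 on chr10, was chosen for description after its values were seen. It had 0.24 and 0 CPM in primary c-Myc-high, 0 and 0.578 CPM in primary c-Myc-low, 5.11, 2.85 and 1.02 CPM in metastatic c-Myc-high, and 5.49, 2.70 and 4.41 CPM in metastatic c-Myc-low cells. The metastatic libraries again lay above the primary ones, at levels near those of a few counts. By counts it was 35 against 1 in c-Myc-high cells, a CPM ratio of 17.3 (95% counting interval 2.91 to 704), and 88 against 2 in c-Myc-low cells, a ratio of 24.6 (6.60 to 206). Its adjusted p averaged over classes was 0.0622 (edgeR). Gstt3, the third measured theta gene, had log2 differences of -0.86 in c-Myc-high and -1.49 in c-Myc-low cells, with no call in the main edgeR test.

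Mgst1 (chr6:138140316-138156755, plus strand), a transferase of the endoplasmic reticulum and outer mitochondrial membrane that also reduces lipid peroxides, was at 2.40 and 0 CPM in primary c-Myc-high and 19.2 and 25.7 CPM in primary c-Myc-low cells. Metastatic libraries gave 22.6, 21.2 and 93.6 CPM in c-Myc-high and 78.0, 46.7 and 30.0 CPM in c-Myc-low cells. The sites did not overlap within either class, but the primary c-Myc-low libraries reached into the range of the metastatic c-Myc-high ones. Its log2 fold change was 3.06 averaged over classes (SE 0.82, adjusted p 0.0289, edgeR), 4.93 in c-Myc-high (SE 1.29, adjusted p 0.0549) and 1.20 in c-Myc-low cells (SE 1.02, adjusted p 0.803). The averaged call held in 11 of 20 alternatives and in 5 of 10 fits that leave out 1 library. It was lost without replicate 2 of the primary c-Myc-high group, either primary c-Myc-low library, or replicate 1 or 2 of the metastatic c-Myc-low group. The averaged call was also lost when both salivary-rich libraries were left out (log2 fold change 2.44), which leaves 1 metastatic c-Myc-high library. Without primary c-Myc-high replicate 1, which leaves that group at 0, the fitted value was 5.99.

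The other microsomal transferases ran the opposite way without passing the main edgeR test. Mgst2 had 101 and 24.3 CPM in primary c-Myc-high, 28.3 and 56.9 CPM in primary c-Myc-low, 0.538, 13.7 and 2.56 CPM in metastatic c-Myc-high and 3.83, 19.2 and 17.5 CPM in metastatic c-Myc-low cells. Each metastatic library lay below each primary one, with an averaged log2 difference of -2.56 (SE 0.85, adjusted p 0.0641, edgeR). Mgst2 passed in the average in some alternatives, among them DESeq2, no filter on low counts and the fit without metastatic c-Myc-high replicate 2. With DESeq2 it also passed within c-Myc-high cells. Mgst3, chosen after its values were seen, had an averaged difference of -3.20 (SE 1.22, adjusted p 0.101) and passed in the average with DESeq2, with limma-voom, without metastatic c-Myc-high replicate 1 and without both libraries rich in salivary transcripts.

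Txnip (chr3:96557957-96561883, plus strand) binds and inhibits thioredoxin and restrains glucose uptake. Its levels were 55.9 and 13.1 CPM in primary c-Myc-high, 132 and 167 CPM in primary c-Myc-low, 480, 385 and 110 CPM in metastatic c-Myc-high, and 262, 301 and 259 CPM in metastatic c-Myc-low cells. Primary c-Myc-high libraries were the lowest, and metastatic c-Myc-high replicate 3 lay below both primary c-Myc-low libraries. The averaged log2 fold change was 2.05 (SE 0.59, adjusted p 0.041, edgeR), with 3.22 in c-Myc-high (SE 0.90, adjusted p 0.0654) and 0.88 in c-Myc-low cells (SE 0.80, adjusted p 0.842). The call held in 9 of 20 alternatives and, of 10 fits without 1 library, only in those without replicate 1 of the primary and without replicate 3 of the metastatic c-Myc-high group. In the other 8 the adjusted p was 0.0632 to 0.200. The strand of counting is not given in the sources used here, and 19.4% of the exon length overlaps Gm15441 on the opposite strand, so reads of the 2 genes cannot be told apart there.

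Neither thioredoxin passed the test. The cytosolic Txn1 had 42.0 to 61.7 CPM in primary c-Myc-high and 42.9 to 79.9 CPM in metastatic c-Myc-high cells, and the mitochondrial Txn2 had 25.2 to 56.2 and 13.3 to 55.6 CPM; both pairs of ranges overlap. In c-Myc-low cells Txn1 was at 95.4 and 92.8 CPM in primary and 90.7, 51.2 and 50.2 CPM in metastatic libraries, which lay lower without overlap (log2 difference -0.55, SE 0.65, adjusted p 0.959, edgeR), and Txn2 overlapped. Txnrd2, the mitochondrial thioredoxin reductase, was at 0 to 3.73 CPM in the primary and 2.42 to 23.8 CPM in the metastatic libraries, an averaged log2 difference of 3.08 (SE 1.33, adjusted p 0.14, edgeR).

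Prdx5 (chr19:6906697-6910106, minus strand) is a peroxiredoxin of mitochondria, peroxisomes and cytosol. It had 197 and 216 CPM in primary c-Myc-high, 145 and 79.7 CPM in primary c-Myc-low, 59.5, 100 and 125 CPM in metastatic c-Myc-high, and 30.8, 20.1 and 32.4 CPM in metastatic c-Myc-low cells. Within each class all metastatic libraries lay below the primary ones, and within each site all c-Myc-high libraries lay above the c-Myc-low ones. Averaged over classes it fell by 1.57 on the log2 scale in metastases (SE 0.45, adjusted p 0.0389, edgeR), with differences of -1.12 in c-Myc-high (SE 0.64, adjusted p 0.271) and -2.02 in c-Myc-low cells (SE 0.64, adjusted p 0.14). The averaged call held in 8 of 20 alternatives and in 4 of 10 fits without 1 library. It was lost without metastatic c-Myc-high replicate 1, or any 1 c-Myc-low library of either site. The averaged call was also lost when both salivary-rich libraries were left out (log2 fold change -1.60), which leaves 1 metastatic c-Myc-high library. On the opposite strand, Trmt112 overlaps 19.1% of its exon length.

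The remaining peroxiredoxins gave no call in the main edgeR test. Prdx1, the most abundant of them, was at 461 and 123 CPM in primary c-Myc-high and 108 to 219 CPM in metastatic c-Myc-high cells, and at 128 to 174 and 144 to 259 CPM in the c-Myc-low classes. Prdx3, which reduces peroxide in mitochondria, was at 2.16 and 146 CPM in the 2 primary c-Myc-high libraries, a range that holds all other libraries. The 6 peroxiredoxins had averaged log2 differences from -1.57 to 1.68.

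**Figure D4:**
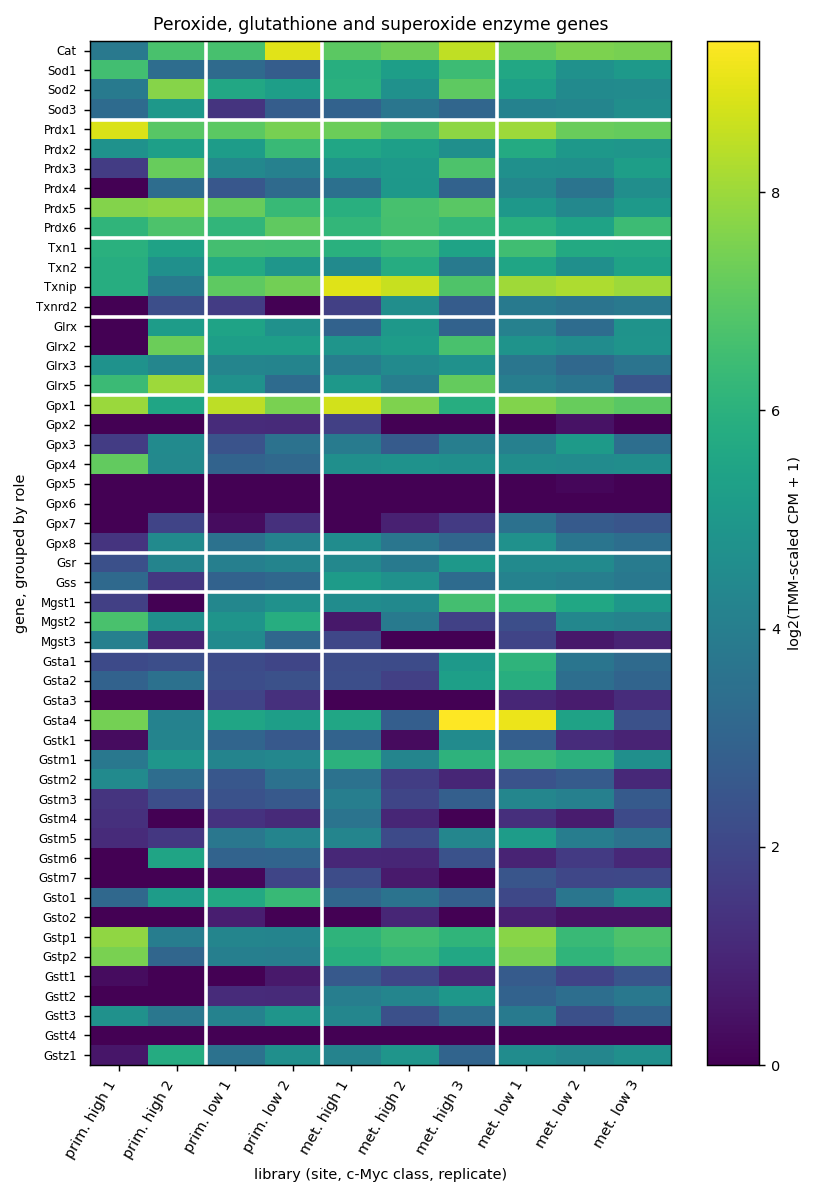
log2(TMM-scaled CPM + 1) of the 52 members (lines, grouped by role) in 10 libraries (columns, grouped by site and c-Myc class), dark for low and yellow for high. Primary c-Myc-high replicates 1 and 2 differ widely within 1 column pair, as for Prdx3 with 2.16 and 146 CPM, and Gstt2 is dark only in primary columns.

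Superoxide dismutases and catalase showed no passing change between sites in the main edgeR test. In c-Myc-low cells Sod1 passed with limma-voom and in the fit of only the 2 groups, and Sod3 with limma-voom. The cytosolic copper-zinc enzyme Sod1 had 91.7 and 9.33 CPM in primary c-Myc-high, 8.56 and 5.78 CPM in primary c-Myc-low, 57.9, 37.3 and 84.9 CPM in metastatic c-Myc-high and 49.0, 25.7 and 32.0 CPM in metastatic c-Myc-low cells. In c-Myc-low cells the sites did not overlap (log2 difference 2.30, SE 0.99, adjusted p 0.291, edgeR), whereas in c-Myc-high cells they did. A pseudogene, Gm8566, shares 23.1% of its 50-base stretches. Mitochondrial Sod2 had 13.7 and 203 CPM in primary c-Myc-high libraries, wider than the 21.4 to 133 CPM of all metastatic ones. The secreted Sod3 was at 1.69 and 5.78 CPM in primary and 16.7 to 23.7 CPM in metastatic c-Myc-low cells, but at 8.64 and 30.8 against 6.73 to 12.02 CPM in c-Myc-high cells. Cat was at 12.7 and 103 CPM in primary and 130, 163 and 357 CPM in metastatic c-Myc-high cells (log2 difference 1.92, SE 0.99, adjusted p 0.234), and at 98.5 and 499 against 148 to 187 CPM in c-Myc-low cells.

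Glutathione peroxidases, glutathione synthesis and recycling, and glutaredoxins had no call between sites in the main edgeR test either. Gpx4 and Gpx7 passed in c-Myc-low cells with limma-voom, and Gss in the average with DESeq2. Gpx4, which reduces lipid peroxides in membranes, was at 139 and 20.5 CPM in primary c-Myc-high and 24.5 to 26.7 CPM in metastatic c-Myc-high cells; in c-Myc-low cells it was at most 8.09 CPM in primary and 22.3 to 23.2 CPM in metastatic libraries (log2 difference 1.60, SE 0.89, adjusted p 0.468, edgeR). The close values of the 6 metastatic libraries stand beside a spread of 139 to 20.5 CPM in 1 primary group, and 35.7% of its 50-base stretches occur in a pseudogene, Gpx4-ps2. Gpx1 overlapped between sites in both classes, with 44.8 to 350 CPM in primary and 57.3 to 424 CPM in metastatic libraries.

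Gss lay higher in all metastatic libraries, at 35.0, 25.7 and 8.69 CPM in c-Myc-high and 16.8, 15.1 and 12.5 CPM in c-Myc-low cells, against 8.16, 1.87, 6.75 and 7.80 CPM in primary ones. Its averaged log2 difference was 1.58 (SE 0.73, adjusted p 0.168, edgeR). Gsr, at 3.84 to 17.7 CPM in primary and 13.2 to 31.2 CPM in metastatic libraries, overlapped. Glrx2, a mitochondrial glutaredoxin, was at 0 and 154 CPM in the primary c-Myc-high libraries and 22.5 to 101 CPM in the metastatic ones, so its direction rests on 1 library. All 4 glutaredoxins had negative averaged differences, from -1.08 to -0.47, and none passed in the main edgeR test (lowest adjusted p 0.336).

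Among the other cytosolic glutathione transferases, no other member passed between sites in the main edgeR test. With DESeq2, Gstm5 passed in c-Myc-high cells, and Gsta1, Gstm6, Gsto1 and Gstt1 passed in the average. Gsta4, which conjugates the lipid peroxidation product 4-hydroxynonenal, ran 170 and 16.8 CPM in primary c-Myc-high, 44.99 and 37.6 CPM in primary c-Myc-low, 45.5, 5.91 and 668 CPM in metastatic c-Myc-high and 552, 41.4 and 4.05 CPM in metastatic c-Myc-low cells. The 2 libraries over 500 CPM, metastatic c-Myc-high replicate 3 and c-Myc-low replicate 1, were also those with the highest melanocyte sums (15806 and 20625 CPM), and the part of melanocyte content in this result was not tested. The same 2 libraries had the highest Gsta1, at 32.2 and 67.6 CPM against at most 11.6 CPM elsewhere, although 90.5% of the Gsta1 50-base stretches occur in other genes.

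Gstp1 was at 224 and 14.9 CPM in primary c-Myc-high and 67.0 to 89.3 CPM in metastatic c-Myc-high cells; in c-Myc-low cells it was at 18.1 and 17.6 against 82.2 to 207 CPM, a log2 difference of 2.89 (SE 1.03, adjusted p 0.187, edgeR). Gstp2 ran alike, with 2.88 (SE 1.10, adjusted p 0.226). Gstm1 had 12.5 to 29.8 CPM in primary and 18.3 to 80.4 CPM in metastatic libraries. Gstm5 was at 1.20 and 1.87 CPM in primary c-Myc-high and 3.26 to 18.9 CPM in metastatic c-Myc-high cells (log2 difference 3.17, SE 1.25, adjusted p 0.145). Gsto1 was lower in metastatic c-Myc-low cells, at 3.06 to 25.4 CPM against 49.9 and 78.3 CPM. It did not pass there in the main edgeR test (-2.26, SE 0.99, adjusted p 0.303). Gstk1, at 0.204 to 22.0 CPM, and Gstz1, at 0.48 to 53.2 CPM, overlapped between the sites in both classes, Gstt3, at 3.86 to 28.9 CPM, in c-Myc-high cells, and Gsto2 stayed at or below 1.02 CPM.

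**Figure D5:**
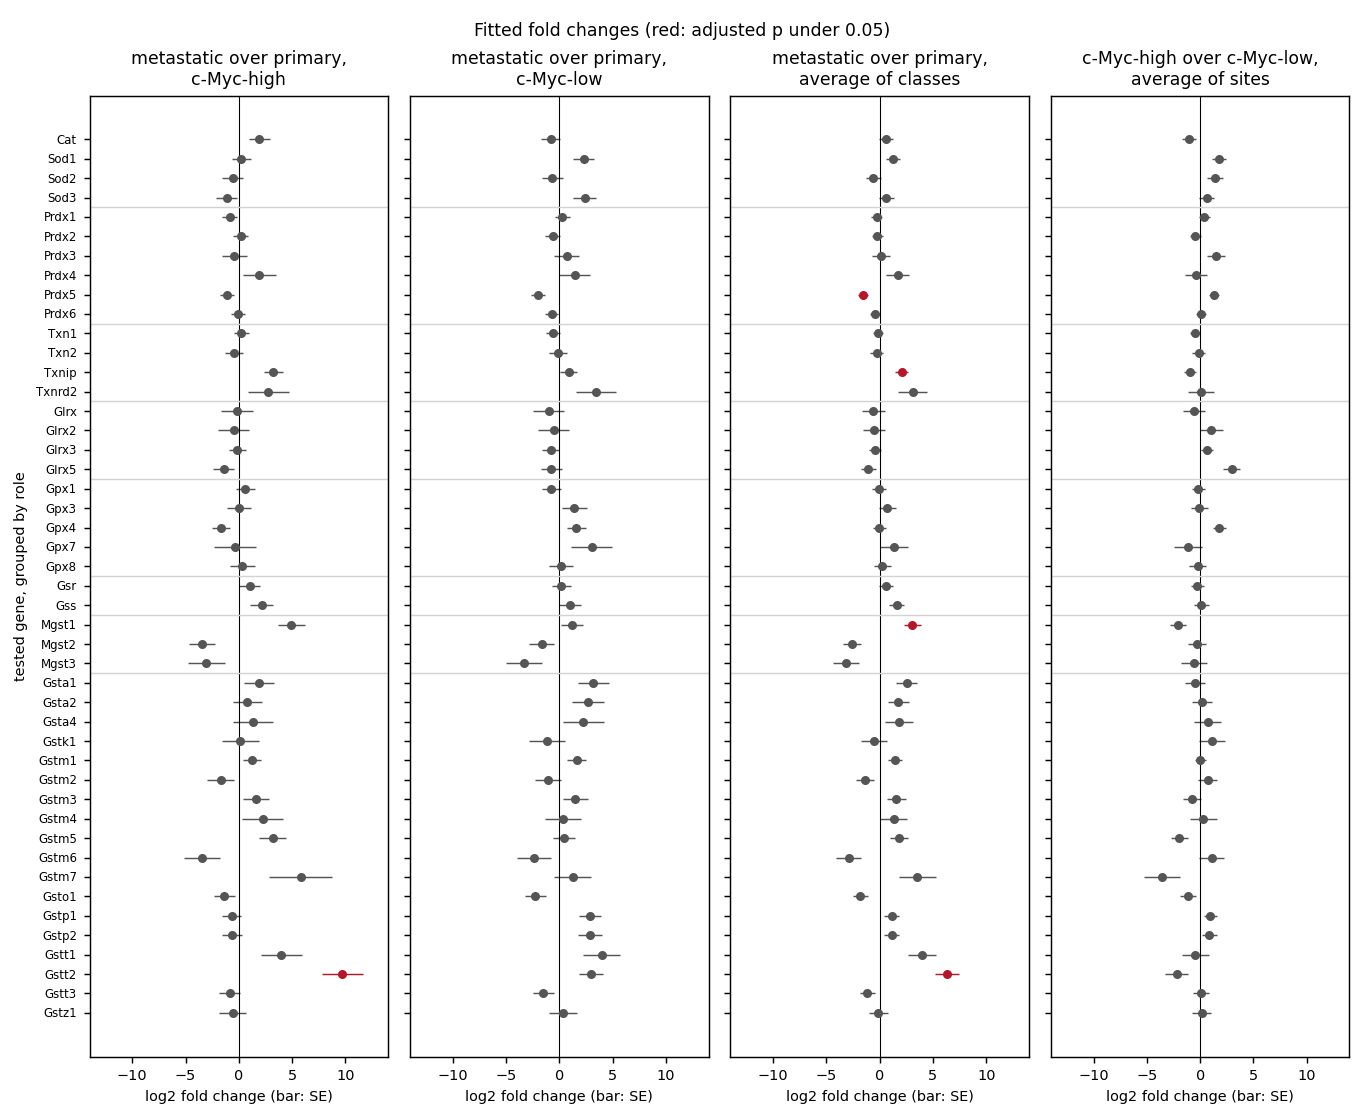
Fitted log2 fold changes (points) with SE (bars) for the 46 tested members, grouped by role, in 4 comparisons; red marks an adjusted p under 0.05. Red points appear for Gstt2 alone in c-Myc-high cells, for none in c-Myc-low cells, for Gstt2, Mgst1, Txnip and Prdx5 in the average of classes, and for none between c-Myc classes.

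Counting members whose metastatic and primary libraries did not overlap gave 9 of 46 (19.6%) in c-Myc-high cells, against 26.7% of all genes. In c-Myc-low cells it gave 28 of 46 (60.9%), against 45.0%: 19 were higher (25.0% of all genes) and 9 lower (20.1% of all genes). Over both classes at once 4 members did not overlap (8.70%, against 10.8%): Gss, Gstt1 and Gstt2 were higher (5.73% of all genes) and Mgst2 lower (5.06% of all genes). Read against these backgrounds, the members' share was under that of all genes in c-Myc-high cells and above it in c-Myc-low cells. These gaps were not tested, and with 2 and 3 libraries groups often separate by chance. The 19 include Gstp1 with Gstp2 and Gsta1 with Gsta2, pairs that share sequence and are not separate evidence.

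Between the c-Myc classes no member passed edgeR's test in primary tumours, in metastases or averaged over sites, and neither did any of the 16805 genes (0.0% called in each). At an unadjusted p under 0.05 there were 10 members (21.7%) in primary tumours, 2 (4.35%) in metastases and 6 (13.0%) in the average, beside 11.6%, 4.80% and 12.9% of all genes. DESeq2 called 1, 0 and 3 members (398, 86 and 500 of all genes) in these comparisons, and limma-voom 0 members in each (2, 0 and 1 of all genes). The glutaredoxin Glrx5, which serves iron-sulfur cluster assembly in mitochondria, had the lowest p in the average. It was at 82.3 and 259 CPM in primary c-Myc-high, 25.9 and 8.67 CPM in primary c-Myc-low, 31.5, 15.3 and 144 CPM in metastatic c-Myc-high and 15.1, 11.5 and 4.60 CPM in metastatic c-Myc-low cells. The classes did not overlap within either site, and the averaged log2 difference was 2.95 (SE 0.78, adjusted p 0.305, edgeR).

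Next by p came Gpx4 (1.78, SE 0.61, adjusted p 0.308), Prdx5 (1.32, SE 0.47, adjusted p 0.308) and Sod1 (1.79, SE 0.66, adjusted p 0.318), also higher in c-Myc-high cells without passing. DESeq2 called Glrx5, Gpx4 and Prdx5 in the average, and Gpx4 in primary tumours. Within primary tumours, Gpx4 had a log2 difference of 3.41 and Mgst1 of -3.90, both with an adjusted p of 0.419 (edgeR). Within metastases the lowest p-values belonged to Prdx5 (1.77, SE 0.60, adjusted p 0.999), Glrx5 (2.61, SE 0.96), Gpx7 (-2.89, SE 1.63) and Sod2 (1.42, SE 0.91).

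By overlap, 15 of 46 members (32.6%) had separate classes in primary tumours, against 40.6% of all genes; 7 were higher in c-Myc-high cells (10.8% of all genes) and 8 lower (29.8% of all genes). In metastases 8 (17.4%) were separate, against 10.9%: Glrx2, Glrx3, Glrx5, Gpx4, Gstt2 and Prdx5 lay higher, and Gpx7 and Sod3 lower. Over both sites at once none was, against 2.0% of all genes. Whether the class difference itself differed between sites was tested by an interaction term, and no member and no gene passed (0.0% called). An unadjusted p under 0.05 was found for 6 members (13.0%), beside 6.84% of all genes. DESeq2 and limma-voom called 0 members (84 and 0 of all genes). Gstt2 had the lowest member p, with an adjusted p of 0.724.

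The genes that supply these enzymes were followed through 75 others in 5 lists, of which 70 were tested. In c-Myc-high cells 0 were higher and 2 lower in metastases: Ggt6 (26.1 and 544 CPM in primary, at most 1.53 CPM in metastatic libraries; adjusted p 0.015) and Ggct (413 and 510 against 0.807 to 37.5 CPM; adjusted p 0.0382), both of glutathione breakdown, where 3.97% of all genes passed. In c-Myc-low cells only Ggt6 passed, lower, against 2.11% of all genes. Averaged over classes 12 of 70 rose and 5 fell (edgeR), beside 8.13% of all genes higher and 5.65% lower; the lists were chosen with results known, and nothing particular to them is read from these counts. Of glutathione supply 3 of 13 tested genes fell (Ggt6, Ggct and Cbs) and none rose. Of 13 tested oxidant-producing enzymes 6 rose, among them the phagocyte oxidase subunit Cybb, Mpo and Nox4, and Duox1 fell.

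Cybb was at 0 to 1.44 CPM in primary and 15.9 to 429 CPM in metastatic libraries, and the leukocyte marker sums were lowest and highest in the same sites. The part of leukocytes in that result was not tested. Of 20 Nrf2 regulators and other antioxidant targets, Ftl1, Fth1, Sesn3 and Osgin1 rose and Nfe2l1 fell. The ferritin heavy chain Fth1 was at 59.7 to 495 CPM in primary and 699 to 2144 CPM in metastatic libraries (log2 fold change 2.42, SE 0.67, adjusted p 0.0344, edgeR). In the NADPH list the mitochondrial transhydrogenase Nnt rose, at 0.96 to 15.0 CPM in primary and 18.8 to 59.3 CPM in metastatic libraries (2.80, SE 0.71, adjusted p 0.0225), and of the methionine sulfoxide reductases Msrb2 did. With a lower p than the other members of their lists in c-Myc-high cells, but not passing, were Nnt, Aldh1l1, Osgin1, Sesn3, Cybb, Ncf1, Msrb2 and Pstk, with adjusted p from 0.0528 to 0.111. No gene of the 5 lists passed between c-Myc classes.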

How the data were processed

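Estimated counts and RPKM values per transcript were taken from 1 table deposited by the authors, with 92214 transcript rows. Bowtie2, limma and mm10 appear in the submitters' processing notes, and the sources used here do not give the counting program or strand. The authors deposited the estimated counts without scaling between libraries. RPKM by definition are scaled to transcript length and depth, but for Gpx1 the deposited RPKM did not follow the total counts used here. Gpx1 was at 52.8 RPKM from 1032 counts in replicate 1 of the primary c-Myc-high group, whose total was 5075407. In replicate 2 of that group, with a total of 1603012, it was at 2.33 RPKM from 48 counts. RPKM per count was thus not higher in the shallower library. The part of library depth in the RPKM, and in limma fitted to them, was not tested. Counts were summed by gene name and rounded, genes filtered with filterByExpr, and 16805 genes fitted with edgeR 4.0.16 (R 4.3.3): TMM factors, robust quasi-likelihood F tests, 4 groups with 1 estimate of spread (common biological coefficient of variation 0.876), Benjamini-Hochberg adjustment over all genes, threshold 0.05. SE values were derived from F. The fit was also run on simulated counts with independent libraries and large added changes only, so that run does not test calls of smaller changes.

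The name rule for the members and the lists were chosen with earlier results of these data known. Named are called members, the 4 with the lowest p per comparison, the 2 of highest RPKM per role and a panel of 14 genes, plus called genes of the lists. Alternatives were DESeq2 1.42.0, limma 3.58.1 (voom, and trend on log2(RPKM + 1) and log2(RPKM + 0.1)), RLE factors, no filter, single transcripts, fewer libraries and a replicate block; merged near-identical copies were added after seeing the data. Intervals and floors (3 counts) cover counting error only.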

Additional observations from a re-analysis of the deposited data

How the results depend on the processing

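The count of members passing between sites in c-Myc-high cells was 1. It was 3 with no filter on low counts and 5 with DESeq2. In the fit of only the 2 groups, with limma-voom and with limma on log2(RPKM + 1) it was 0. In c-Myc-low cells the count of 0 became 6 with only the 2 groups, 4 with DESeq2 and 15 with limma-voom. Averaged over classes the count of 4 became 2 with the highest-mean transcript, 12 with DESeq2 and 1 with limma on log2(RPKM + 1). Between c-Myc classes DESeq2 called 1 member in primary tumours and 3 in the average. Leaving out 1 library gave 0 to 5, 0 to 2 and 1 to 8 members in the c-Myc-high, c-Myc-low and averaged site comparisons. With the replicate block the counts were 0 in c-Myc-high cells and 1 (Gstt2) in the average, and of all genes 150 and 965 (140 in c-Myc-low cells). Same-numbered libraries had correlations of deviations from -0.31 to 0.15 over all pairs of groups, so the numbers were not taken as pairs. Some metastatic libraries with different numbers went together more closely. Metastatic c-Myc-high replicates 2, 3 and 1 reached 0.56, 0.36 and 0.24 with c-Myc-low replicates 3, 1 and 2. A pairing by these values was not fitted, and the main tests took all libraries as independent. Without primary c-Myc-high replicate 2, Glrx2 turned to 11.23 in c-Myc-high cells and 5.32 in the average, against -1.64 and -1.13 without replicate 1 of that group (adjusted p 0.0141 and 0.0115 for the former). The other library of its group held 0 counts.

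Of all genes, 667, 355 and 2316 passed in the c-Myc-high, c-Myc-low and averaged site comparisons. DESeq2 called 3248, 1687 and 3963, and limma-voom 166, 3944 and 1900. With no filter there were 1273, 774 and 2773, and with the highest-mean transcript 335, 225 and 1780. With limma on log2(RPKM + 1) there were 75, 328 and 796, and on log2(RPKM + 0.1) 278, 549 and 1711. The fit without both salivary-rich libraries keeps 1 metastatic c-Myc-high library, so its counts are not set beside these. The fits of only the 2 groups called 155 genes in c-Myc-high and 2276 of 16297 in c-Myc-low cells. Between c-Myc classes 0 to 11 genes passed in the alternatives that keep all libraries, DESeq2 aside, and up to 33 without metastatic c-Myc-high replicate 2. Without 1 library the counts were 300 to 1232, 127 to 572 and 722 to 2788. RLE factors moved the median of all genes in c-Myc-high cells from 0.38 to 0.28. The share of higher calls there was 41.7%; it was 0.0% with limma-voom, 3.87% with only the 2 groups, 5.33% with limma on log2(RPKM + 1), 15.3% with the replicate block, 31.0% with the highest-mean transcript and 61.6% with DESeq2. Depth limits tested members with a group at 3 counts or fewer, among them Gpx7, Gstm7, Gstt1 and Gstt2. The cause was not tested for these changes.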
